A study of Homo sapiens with 6 samples.

Results

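The genes described here carry out the transcriptional arm of the ATF4 stress response and charge transfer RNAs with amino acids in the cytosol. They were chosen by name, as 34 gene symbols, and a gene was taken as measured when the platform annotation gave a probe set that 1 symbol and no other. That held for 31 of the 34, out of 11963 genes with such a probe set on the array, and each was read from its probe set with the highest mean log2 signal. SESN2, MARS1 and QARS1 are not analysed here. The probe sets of MARS1 and QARS1 carry several symbols. All 31 lay above the filter on low signals, a mean signal of 45.5, as did 7927 genes in all. RNA came from NCI-H295A cells, an established steroid-producing human adrenocortical carcinoma line, and each array holds 1 sample. The 3 treated samples were plates kept with 8-Br-cAMP, a cell-permeable analogue of cAMP, at 1 mM for 18 h, and the 3 controls were plates without it. Both groups grew in the same medium of little serum with insulin and selenium, and sample numbers 1 to 3 come from the labels. The series text speaks of 3 separate experiments but ties no sample number to one. A p-value here therefore reflects how these 6 arrays vary, part of which may be technical, and the small number of arrays limits the precision. Cells were measured in bulk, so a change in the share of expressing cells and a change per cell cannot be told apart.

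When amino acids run short, misfolded proteins collect in the endoplasmic reticulum or haem is lacking, kinases phosphorylate the initiation factor eIF2. General translation then slows while the mRNA of ATF4, a leucine zipper transcription factor, is translated more. ATF4 pairs with C/EBP and other zipper proteins at C/EBP-ATF response elements and raises genes for amino acid uptake, asparagine and serine synthesis, tRNA charging and the feedback that restores translation. In adrenal cells, cAMP carries the signal of the hormone ACTH, and protein kinase A passes it on to the transcription factor CREB.

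Promoter sequence is shown for the members whose 250 bases upstream of the RefSeq start hold a match to either of 2 motifs, chosen with the array values known, because these are the response elements named above. The motifs were the core of the C/EBP-ATF element, TGATGNAA, on both strands, and the palindromic cAMP response element, TGACGTCA (no printed window held both). RefSeq promoters (GRCh38.p14) were at hand for 29 of the 34 symbols. The C/EBP-ATF core was found in 5 of the 29 (17.2%), against 3.19% of 27303 promoters of the same length and 1.43% of the 6564 that belong to tested genes. The cAMP element was found in 1 of the 29 (3.45%), against 1.77% of all and 3.18% of those of tested genes. A match is a stretch of letters and not a shown binding site. Each stretch below reads 5′ to 3′ along the gene's strand, with the match in capitals. The stretches lie at chr1:212565180-212565259 (ATF3, plus strand), chr15:40953226-40953305 (CHAC1, plus), chr7:97872433-97872512 (ASNS, minus), chr16:70289650-70289729 (AARS1, minus), chr9:92293698-92293746 (IARS1, minus) and chr19:48872327-48872406 (PPP1R15A, plus, the cAMP element).
ATF3: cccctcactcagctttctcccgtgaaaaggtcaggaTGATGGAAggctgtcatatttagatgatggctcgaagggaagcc
CHAC1: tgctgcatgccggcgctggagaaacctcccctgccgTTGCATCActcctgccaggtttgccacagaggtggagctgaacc
ASNS: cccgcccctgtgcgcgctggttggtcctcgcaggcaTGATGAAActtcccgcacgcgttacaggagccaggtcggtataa
AARS1: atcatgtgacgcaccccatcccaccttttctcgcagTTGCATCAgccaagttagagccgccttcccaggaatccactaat
IARS1: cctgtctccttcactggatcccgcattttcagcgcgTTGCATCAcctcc
PPP1R15A: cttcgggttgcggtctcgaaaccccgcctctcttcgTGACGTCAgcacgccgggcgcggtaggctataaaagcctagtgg

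The 2 arrays numbered 1 differed from the other 4 and bear on every value below. The 3′/5′ signal ratio of the actin control, a sign of RNA integrity, was 38.8 on 8-Br-cAMP 1 and 5.72 on control 1, and 1.93 to 2.41 elsewhere. For GAPDH it was 4.29 on 8-Br-cAMP 1 and 1.79 on control 1, and 1.05 to 1.17 elsewhere. All 8 measured adrenocortical markers of 9 listed lay above the filter. Their signals summed to 37802.5, 17629.5 and 17594.7 on 8-Br-cAMP 1 to 3, against 21528.5, 6321.9 and 6176.4 on controls 1 to 3, highest on number 1 in both groups. Of 5 chromaffin cell markers, 4 lay below the filter, among them TH and DBH, and the 5 summed to 172.7 to 292.9 after 8-Br-cAMP and 164.7 to 318.6 in controls. The sum of these 5 was also highest on number 1 in both groups. Of 3 endothelial markers 2 lay above the filter, with sums of 265 to 401.3 after 8-Br-cAMP and 90.6 to 150.8 in controls, which do not overlap. The part of this difference in the results below was not tested. Of 4 fibroblast markers 2 lay above the filter (sums of 227.8 to 286.6 after 8-Br-cAMP and 188.5 to 334.1 in controls), as did 1 of 2 measured leukocyte markers (48.7 to 150.7 after 8-Br-cAMP and 55.4 to 75.1 in controls). Deposited signals were scaled to a common array mean, and over every probe set above the filter the log2 difference had a median of -0.13. It moved by 0.10 with quantile normalization and by 0.23 with a common median, so directions of small differences depend on the scaling.

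After 8-Br-cAMP, the ATF4 factor genes ATF4 and DDIT3 and the feedback genes TRIB3 and PPP1R15A had higher signals in every same-numbered pair, the serine synthesis genes PHGDH and PSAT1 had lower ones, and the synthetases were mostly higher in pair 1 and mostly lower in pairs 2 and 3. No member passed the test on all 6 arrays. In limma without a block, 0 of 31 members and 0% of 7927 genes had an adjusted p under 0.05. At an unadjusted p under 0.05 there were 2 members, AARS1 (higher) and PHGDH (lower), against 11.9% of all genes. With the sample number as a block, which pairs arrays of the same number, 0 of 31 members passed, against 3.68% of all genes, and 7 members had an unadjusted p under 0.05, against 22.4%. The labels do not give this pairing, so paired intervals and p-values here and below depend on it being right. Across the 3 pairs, 10 members were higher in all and 6 lower in all, where 15.2% and 29.5% of all genes were. The groups did not overlap for 1 higher member, AARS1, and 1 lower member, PHGDH (6.32% and 13.6% of all genes). The median log2 difference of the 31 was 0.10, and -0.14 over all genes tested. Without 8-Br-cAMP 1 it was 0.51, and without control 1 it was -0.28.

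With both number 1 arrays left out, 12 members passed, 6 higher and 6 lower, against 12.8% of all genes higher and 20.5% lower in that fit. The higher ones were ATF4, DDIT3, TRIB3, PPP1R15A, DDIT4 and AARS1, and the lower ones PHGDH, PSAT1, CHAC1, SHMT2, NARS1 and TARS1. The 2 arrays left in each group are closely alike: the members differed between numbers 2 and 3 by a median of 0.075 on the log2 scale after 8-Br-cAMP and 0.15 in controls. These p-values therefore may measure only technical spread. The balance of directions depended on the scaling: 6 members were higher and 11 lower with quantile normalization, and 9 higher and 1 lower with a common median. Quantile normalization was made over all 6 arrays before the number 1 arrays were left out. Over all genes 1016 were higher and 1627 lower as deposited, 1064 and 1307 with quantile normalization, and 1646 and 601 with a common median. Of the 12, 7 passed in each of the 4 fits on these arrays (as deposited, quantile normalized, with a common median, and with the replicate block), the 6 higher members and PSAT1. The share of all genes that passed in each of the 4 fits was not computed. All 4 fits use the same 4 arrays, so they are not independent of each other. The 4-array fit is the one meant below where a gene is said to have risen or fallen.

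**Figure D1:**
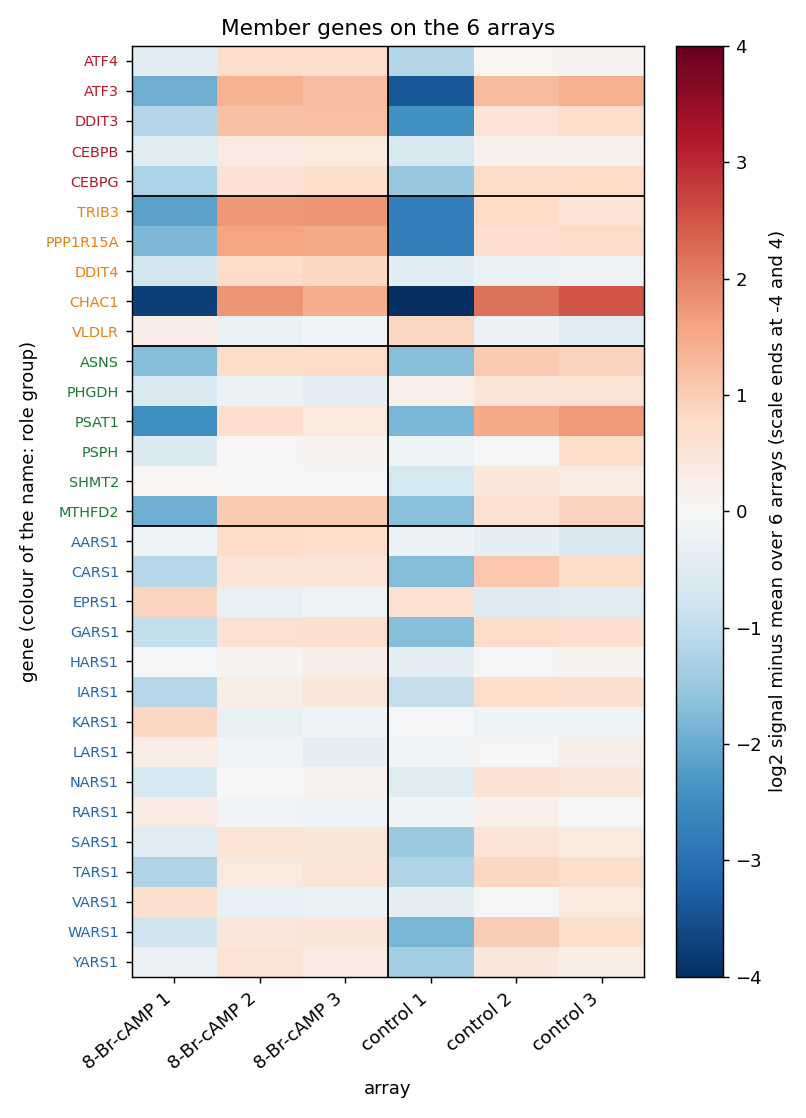
Log2 signal of the 31 members (rows, by role group) on each of the 6 arrays (columns), as the difference from the gene's mean over the arrays. The 2 columns of the arrays numbered 1 are blue for most regulators, feedback genes and synthesis genes, with CHAC1 the deepest blue on both.

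Among the 5 regulator genes, ATF4 and DDIT3 were the pair that rose in the 4-array fit, where 12.8% of all genes were higher. ATF4 had signals of 2124.2, 4598.9 and 4649.2 on 8-Br-cAMP 1 to 3, against 1266.2, 2975.4 and 3106.2 on controls 1 to 3. The groups overlapped only because 8-Br-cAMP 1 lay below controls 2 and 3, and each treated array was above its same-numbered control. On the log2 scale ATF4 averaged 11.80 ± 0.65 after 8-Br-cAMP and 11.15 ± 0.73 in controls (SD, n = 3 each), a difference of 0.65. Its 95% interval was -0.43 to 1.74 in the main fit without a block (limma adjusted p = 0.689). In the paired fit it was 0.25 to 1.05 (limma adjusted p = 0.0914). The rise in the 4-array fit was 1.52-fold (limma adjusted p = 0.00242).

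DDIT3, which encodes CHOP, a zipper factor linked to cell death under prolonged stress, had signals of 587.7, 2991.7 and 3035.9 after 8-Br-cAMP, against 245.2, 1906.4 and 2144.5 in controls. Number 1 was the lowest array in both groups, and the treated array was the higher of each pair. DDIT3 rose 1.49-fold in the 4-array fit (limma adjusted p = 0.0046), and over all arrays the difference was 0.80 on the log2 scale (limma adjusted p = 0.847 without the block and 0.103 paired). ATF3, a repressor induced by ATF4 and by other stress signals, had signals of 130.9, 1316.7 and 1196.6 after 8-Br-cAMP, against 47.8, 1213.5 and 1362.3 in controls. Its treated arrays 2 and 3 lay within the range of controls 2 and 3 or just below it, and its log2 difference of 1.45 in pair 1 stood against 0.12 and -0.19 in pairs 2 and 3. CEBPB and CEBPG encode partners of ATF4. CEBPB had signals of 2739.7, 4909.9 and 5000 after 8-Br-cAMP, against 2443.9, 4301.4 and 4433.4 in controls. Its 4-array difference of 0.18 (log2) passed only with a common median (0.52, limma adjusted p = 0.0268), and the difference over 6 arrays turned to -0.0118 with quantile normalization. The difference of CEBPG was -0.0032 over all arrays (95% interval -1.82 to 1.82 without the block and -0.50 to 0.49 in the paired fit).

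Of the 5 measured feedback and effector genes, 3 rose and 1 fell, beside 12.8% and 20.5% of all genes in the 4-array fit. TRIB3, a pseudokinase that binds ATF4 and damps it, had signals of 177.7, 2605.3 and 2652.9 after 8-Br-cAMP, against 116.2, 1367.8 and 1145.0 in controls. Its number 1 arrays held a small part of the signal of the others, and each treated array exceeded its control. TRIB3 rose 2.10-fold in the 4-array fit (limma adjusted p = 0.000403), with differences of 0.61, 0.93 and 1.21 (log2) in pairs 1, 2 and 3. Over all arrays its limma adjusted p was 0.874 without the block and 0.0692 paired.

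PPP1R15A encodes GADD34, the phosphatase subunit that takes phosphate off eIF2 and lets translation resume. It had signals of 195.8, 2044.5 and 1976.1 after 8-Br-cAMP, against 103.0, 1091.9 and 1151.0 in controls. The pairs differed by 0.93, 0.90 and 0.78 on the log2 scale, about alike in size, and the other probe set of the gene differed by 0.89 over all arrays. The rise was 1.79-fold in the 4-array fit (limma adjusted p = 0.000676), and PPP1R15A had the smallest paired adjusted p of the members (0.0608, limma, against 0.873 without the block). Its promoter window holds the cAMP element printed above, found in 3.45% of member promoters and 3.18% of those of tested genes. A link between the element and the rise was not tested.

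DDIT4, which encodes REDD1, an inhibitor of mTORC1, had signals of 334.6, 922.1 and 992.7 after 8-Br-cAMP, against 407.2, 463.6 and 504.8 in controls. Treated arrays 2 and 3 stood above all controls and 8-Br-cAMP 1 below them. DDIT4 rose 1.98-fold in the 4-array fit (limma adjusted p = 0.000675). Over all arrays its limma adjusted p was 0.727 without the block and 0.336 paired. CHAC1, described after its values were seen, degrades glutathione. It had signals of 9.5, 434.3 and 345.4 after 8-Br-cAMP, against 6.9, 576.6 and 725.2 in controls, and fell 1.67-fold in the 4-array fit (limma adjusted p = 0.012), though not with a common median (adjusted p = 0.20). VLDLR, a lipoprotein receptor that ATF4 can raise, had signals of 1204.1, 828.4 and 926.1 after 8-Br-cAMP, against 1760.0, 852.6 and 712.7 in controls. It differed by -0.55, -0.04 and 0.38 (log2) in pairs 1, 2 and 3 and did not pass.

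**Figure D2:**
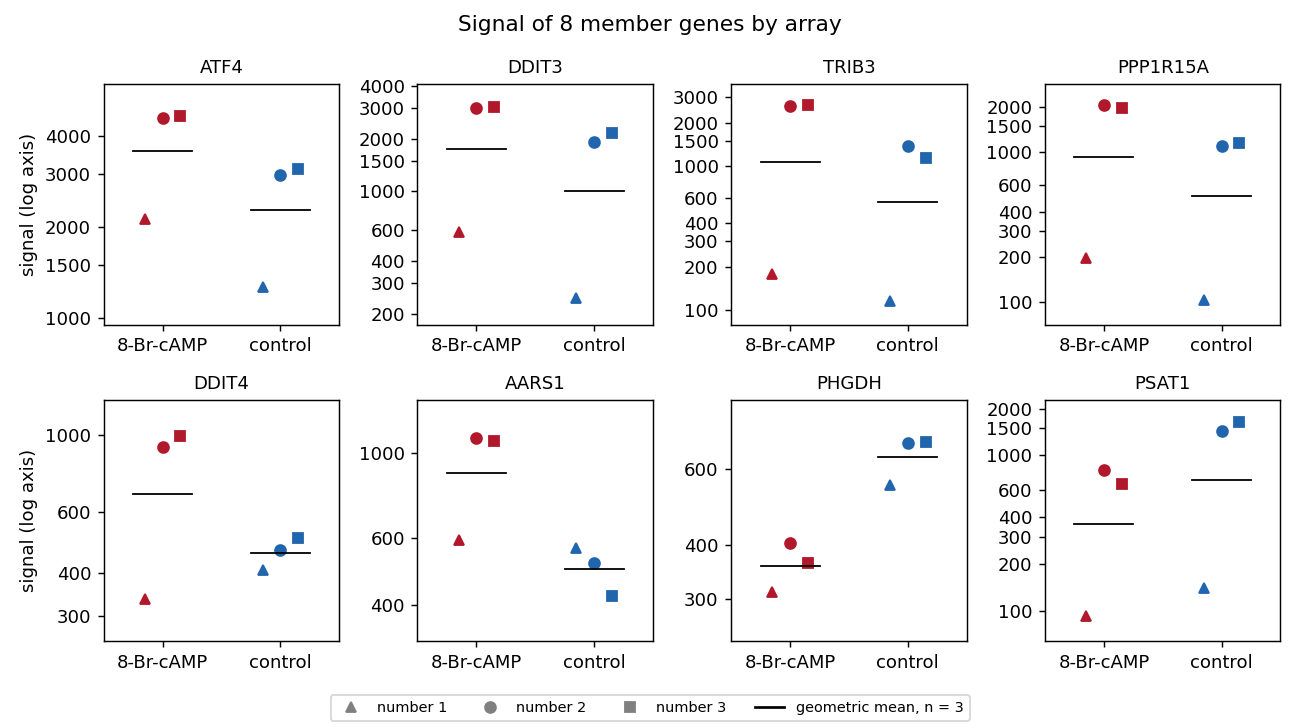
Signal (log axis) of 8 members on each array, with 8-Br-cAMP left of control, markers for sample numbers and a bar at the geometric mean (n = 3). In ATF4, DDIT3, TRIB3, PPP1R15A and PSAT1 the number 1 array is far below the others of its group, while PHGDH and AARS1 show groups that do not overlap.

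In the serine pathway, the first enzymes fell. PHGDH encodes the dehydrogenase that draws 3-phosphoglycerate into serine synthesis. It had signals of 312.2, 405.2 and 364.7 after 8-Br-cAMP, against 551.3, 691.1 and 694.0 in controls. All treated arrays lay below all controls, and the gap of number 1 to the mean of numbers 2 and 3 was small, at -0.30 after 8-Br-cAMP and -0.33 in controls (log2). The log2 difference was -0.84 (SE 0.25, limma adjusted p = 0.275, and 0.0718 in the paired fit), with -0.82, -0.77 and -0.93 in pairs 1, 2 and 3. PHGDH fell 1.80-fold in the 4-array fit (limma adjusted p = 0.00173), and its adjusted p there was 0.0578 with a common median.

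PSAT1 encodes the aminotransferase of the next step. It had signals of 92.2, 801.7 and 657.2 after 8-Br-cAMP, against 141.4, 1425.9 and 1633.6 in controls. Every treated array was below its control, with both number 1 arrays far below the others. PSAT1 fell 2.10-fold in the 4-array fit (limma adjusted p = 0.000855), and over all arrays its limma adjusted p was 0.853 without the block and 0.0794 paired. PSPH, the phosphatase of the last step, had signals of 682.2, 1053.2 and 1101.1 after 8-Br-cAMP, against 907.6, 962.7 and 1666.3 in controls, with overlap and a log2 difference of -0.29 that did not pass. The other kept probe set of PSPH was lower in every pair, by -0.65, -0.27 and -0.80 (log2). Its difference over all arrays was -0.58 (limma adjusted p = 0.520 without the block and 0.186 paired), and it did not pass in the 4-array fit (0.0712).

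ASNS, the asparagine synthetase, had signals of 817.1, 4512.4 and 4620.1 after 8-Br-cAMP, against 841.0, 5665.6 and 5166.1 in controls. Both number 1 arrays were low. Pairs 2 and 3 differed by -0.33 and -0.16 on the log2 scale, and the gene did not pass (4-array limma adjusted p = 0.0959). SHMT2, which passes a carbon of serine to folate in mitochondria, had a log2 difference of 0.80 in pair 1 against -0.44 and -0.33 in the others. It fell 1.31-fold in the 4-array fit (limma adjusted p = 0.0211, and 0.856 with a common median). MTHFD2, the next mitochondrial folate enzyme, differed by -0.27, 0.45 and 0.14 in the pairs and did not pass. Over the 6 synthesis genes, 0 were higher and 3 lower in the 4-array fit as deposited, beside 12.8% and 20.5% of all genes. With a common median 1 was higher and 1 lower, beside 1646 and 601 of all 7927 genes. The group had a median log2 difference of -0.32 as deposited, -0.58 with quantile normalization and 0.03 with a common median.

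Of 15 measured cytosolic synthetases, 1 was higher and 2 were lower in the 4-array fit as deposited, beside 12.8% and 20.5% of all genes. These counts were 1 and 6 with quantile normalization, 1 and 4 with the replicate block, and 2 and 0 with a common median, and AARS1 was higher in each. The counts also depend on the probe set used. As deposited, other kept probe sets of CARS1 (-0.61 log2, limma adjusted p = 0.0241) and KARS1 (-0.63, 0.0286) passed as lower in the 4-array fit. Other kept probe sets of EPRS1, VARS1 and WARS1 did not pass. AARS1, which charges alanine, had signals of 591.1, 1093.5 and 1074.5 after 8-Br-cAMP, against 564.6, 517.1 and 421.9 in controls. The groups did not overlap, and the difference lay almost wholly in pairs 2 and 3, at 1.08 and 1.35 on the log2 scale, against 0.07 in pair 1. AARS1 rose 2.32-fold in the 4-array fit (limma adjusted p = 0.000405), and over all arrays the log2 difference was 0.83 (SE 0.32, limma adjusted p = 0.409).

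NARS1, which charges asparagine, had signals of 1466.2, 2437.0 and 2648.4 after 8-Br-cAMP, against 1707.7, 3545.4 and 3241.5 in controls, each treated array being the lower of its pair. NARS1 fell 1.33-fold in the 4-array fit (limma adjusted p = 0.0184). The threonine enzyme TARS1 fell 1.25-fold (limma adjusted p = 0.0479). With a common median NARS1 did not pass (limma adjusted p = 0.767) and TARS1 turned to 0.019 on the log2 scale (0.947), and TARS1 did not pass with the replicate block either (0.0586).

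The tyrosine enzyme YARS1 had signals of 1011.6, 1706.0 and 1491.4 after 8-Br-cAMP, against 449.4, 1600.9 and 1444.9 in controls, so that arrays 2 and 3 of both groups were close and control 1 was low. The histidine enzyme HARS1 had signals of 496.8, 551.2 and 620.6 after 8-Br-cAMP, against 402.1, 482.4 and 552.0 in controls, with each pair differing by 0.17 to 0.31 (log2) and no pass. The valine enzyme VARS1 had signals of 674.4, 341.4 and 359.6 after 8-Br-cAMP, against 328.5, 417.7 and 565.1 in controls, higher in pair 1 and lower in the others. Synthetases as a whole parted in the same way: 12 of 15 were higher after 8-Br-cAMP in pair 1, and 5 and 6 of 15 in pairs 2 and 3, where 3830, 3003 and 3060 of the 7927 genes were. Pair 1 gave the 15 a median log2 difference of 0.50, while pair 2 gave -0.18 and pair 3 gave -0.14. With a common median in place of the deposited scaling, the 4-array median of -0.23 became 0.12, so no direction is given for the family.

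**Figure D3:**
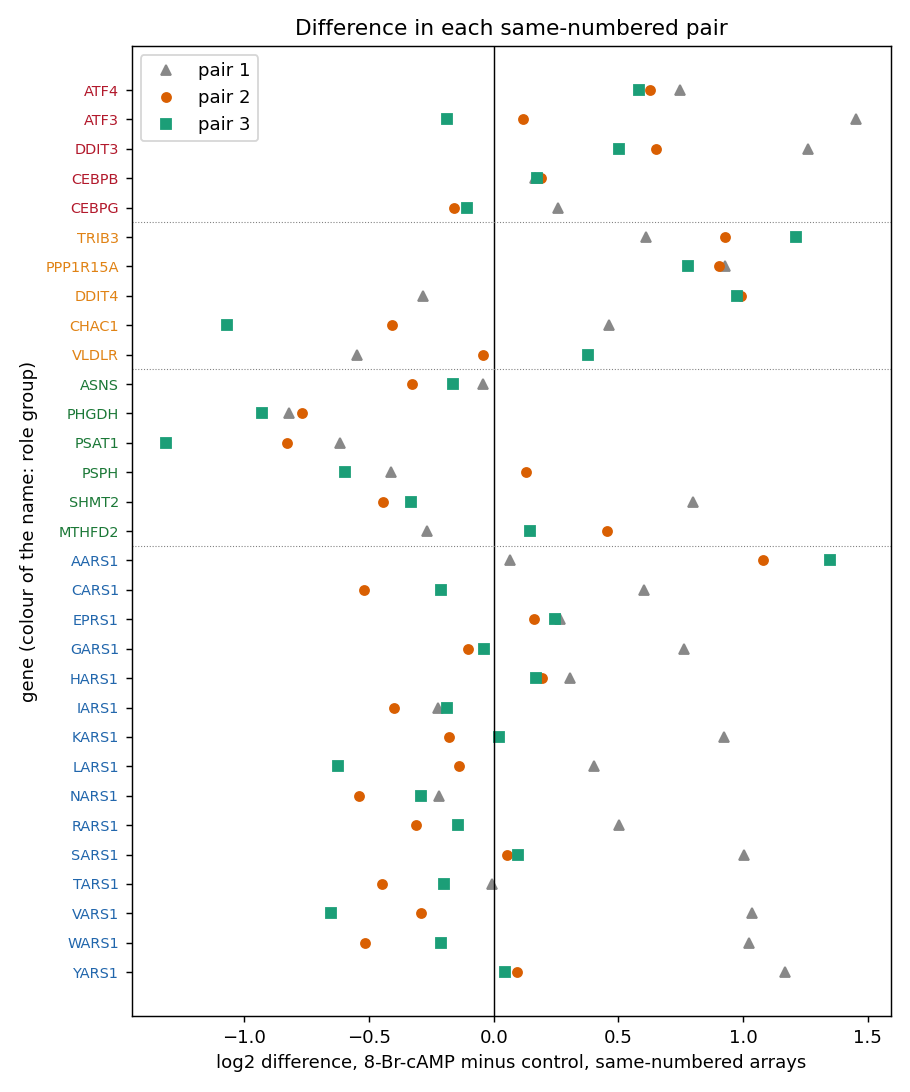
Log2 difference between 8-Br-cAMP and control for each member (rows) in pairs 1, 2 and 3 (markers). TRIB3 and PPP1R15A lie right of 0 and PHGDH and PSAT1 left of 0 in every pair, while synthetases such as SARS1, VARS1, WARS1 and YARS1 are at 1.01 to 1.17 in pair 1 and near or below 0 in pairs 2 and 3.

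A further difference followed the sample number. It was noticed in the data and is given as a description, with no test. For 15 of the 31 members (48.4%) the number 1 array was at least 2-fold below both other arrays of its group, in both groups, and that held for 4.00% of all genes tested. These were ATF4, ATF3, DDIT3 and CEBPG among regulators, TRIB3, PPP1R15A and CHAC1 among feedback and effector genes, ASNS, PSAT1 and MTHFD2 among synthesis genes, and CARS1, GARS1, IARS1, TARS1 and WARS1 among synthetases. One member, EPRS1, was at least 2-fold above, as were 4.64% of all genes. Over the 15, the signal on numbers 2 and 3 was 2.18-fold to 40.8-fold that on number 1 after 8-Br-cAMP (median 5.13-fold) and 2.40-fold to 93.7-fold in controls (median 6.36-fold). The upper ends are those of CHAC1, whose number 1 signals of 9.5 and 6.9 lie below the filter level, so that its folds are imprecise. The median gap of all 7927 genes was 0.17 (log2, number 1 minus the mean of numbers 2 and 3) after 8-Br-cAMP and -0.0058 in controls. The actin and GAPDH 3′/5′ ratios given above moved with the number, and their part in these gaps was not tested.

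**Figure D4:**
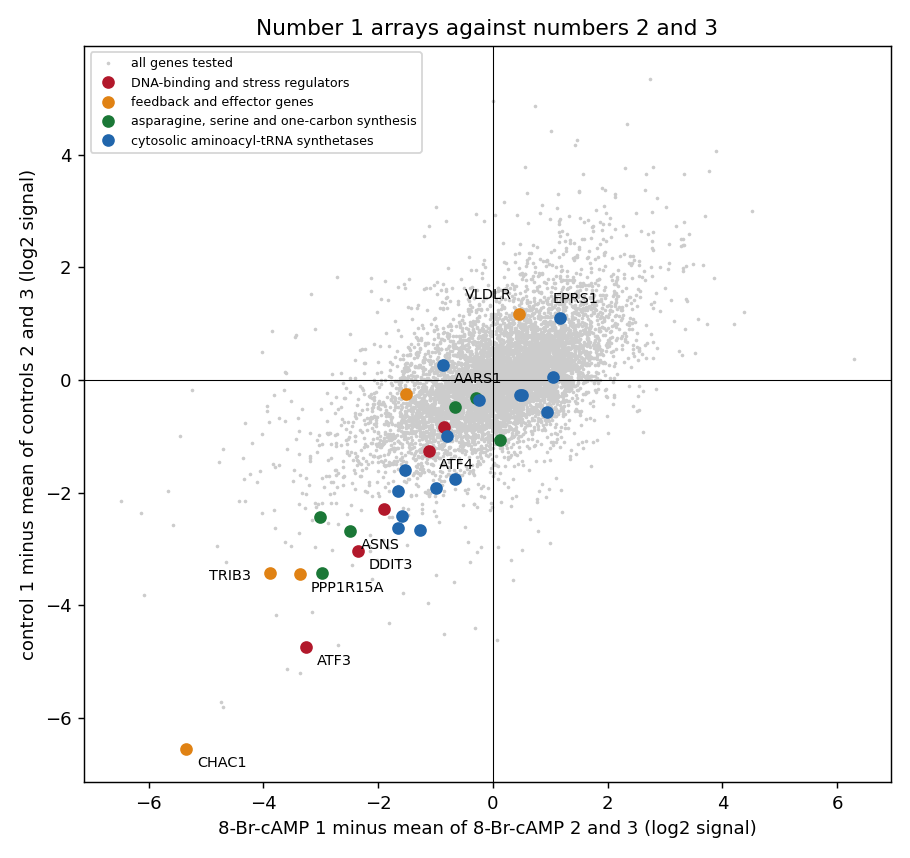
Log2 signal of the number 1 array minus the mean of numbers 2 and 3, in 8-Br-cAMP samples (x axis) and controls (y axis), for all 7927 genes tested (grey) and the members (colours by role group). CHAC1, ATF3, TRIB3, PPP1R15A, PSAT1 and DDIT3 lie in the lower left, and AARS1, RARS1 and LARS1 within 1 of 0 on both axes.

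Probe sets of 1 gene did not always share that gap. EPRS1, the enzyme for glutamate and proline, has 3 kept probe sets. The one used above had signals of 5435.4, 2314.0 and 2529.3 after 8-Br-cAMP, against 4513.8, 2070.4 and 2135.2 in controls, highest on number 1. Another had 1075.6, 2168.9 and 2140.9 after 8-Br-cAMP, against 801.1, 1612.9 and 1971.4 in controls, lowest on number 1. The remaining one had 47.3, 374.0 and 384.6 after 8-Br-cAMP, against 52.6, 391.0 and 321.4 in controls, so the gap ran from 1.17 to -3.00 (log2) between probe sets in treated samples. For the tryptophan enzyme WARS1 the gaps of its 2 probe sets were -1.28 and -4.71 after 8-Br-cAMP and -2.67 and -4.30 in controls. For PPP1R15A they were -3.36 and -3.38 after 8-Br-cAMP and -3.44 and -3.40 in controls. Of the 8 members with several kept probe sets, EPRS1, KARS1 and PSPH had gaps of opposite sign between probe sets in both groups.

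**Figure D5:**
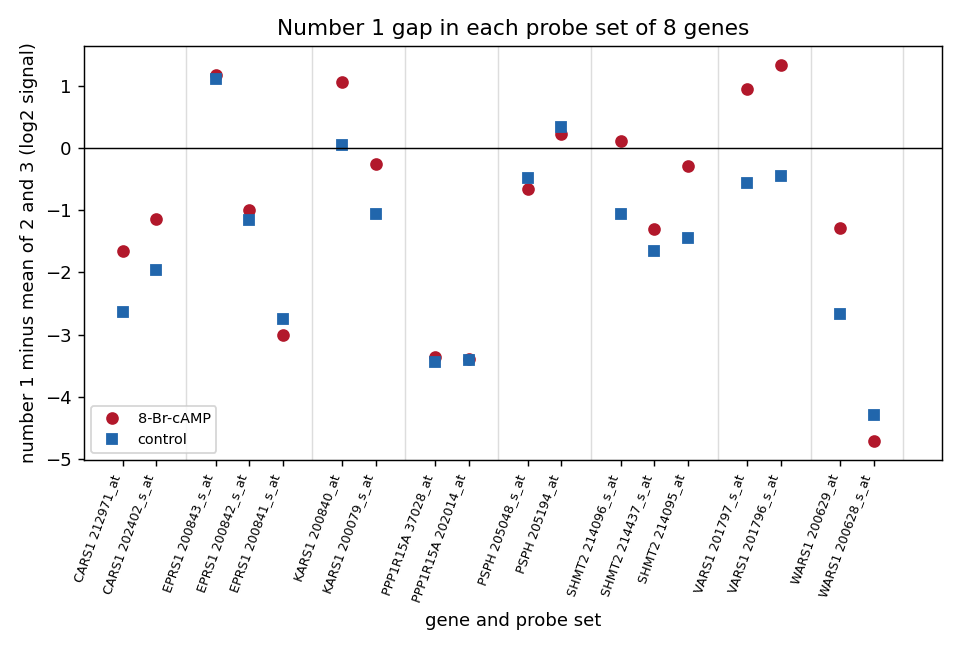
Gap between the number 1 array and the mean of numbers 2 and 3 (log2 signal) for each kept probe set of the 8 members that have several, in 8-Br-cAMP samples (circles) and controls (squares). The EPRS1 probe sets run from above 1 to about -3, while those of PPP1R15A lie together.

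Genes around the pathway, from lists chosen with earlier results of these data known, moved in both directions. Of 16 other ATF4 target genes tested, 1 rose and 1 fell in the paired fit, against 3.68% of all genes. GDF15, a stress-induced cytokine, had signals of 785.1, 9593.6 and 9413.5 after 8-Br-cAMP, against 52.3, 1699.3 and 1982.9 in controls. Each treated array was above its control and the number 1 arrays were low, with a log2 difference of 2.88 or 7.38-fold (paired SE 0.33, limma adjusted p = 0.0144, lost in 1 of 9 paired fits, and 0.576 without the block). NUPR1, a stress-induced chromatin protein, had signals of 13.8, 356.5 and 340.4 after 8-Br-cAMP, against 95, 951.0 and 844.3 in controls. Its 8-Br-cAMP 1 signal lies below the filter level, so the difference of -2.78 (log2) in pair 1 is imprecise, while pairs 2 and 3 gave -1.42 and -1.31. Over all arrays the log2 difference was -1.84 (paired limma adjusted p = 0.0439, lost in 3 of 9 paired fits, and 0.723 without the block). The 4-array difference of NUPR1 was -1.36 (limma adjusted p = 0.000163). In the 4-array fit 7 of the 16 were higher and 4 lower as deposited, beside 12.8% and 20.5% of all genes. The counts were 6 and 5 with quantile normalization (1064 and 1307 of all 7927 genes), and 8 and 2 with a common median (1646 and 601). The number 1 arrays were at least 2-fold below the others in both groups for 6 of these 16.

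Of 13 genes for eIF2 kinases, eIF2 and its exchange factor, 1 passed the paired fit, against 3.68% of all genes. EIF2AK2, which encodes the double-stranded RNA kinase PKR, had signals of 214.7, 252.1 and 237.9 after 8-Br-cAMP, against 421.7, 537.8 and 578.6 in controls. The groups did not overlap, and the log2 difference was -1.12 (paired limma adjusted p = 0.044, lost in 3 of 9 paired fits, and 0.173 without the block). EIF2AK3, which encodes the endoplasmic reticulum kinase PERK and was picked after its values were seen, had signals of 414.2, 1629.2 and 1713.1 after 8-Br-cAMP, against 677.3, 600.9 and 645.4 in controls. Pair 1 differed by -0.71 (log2), and over all arrays EIF2AK3 differed by 0.71 (limma adjusted p = 0.718 without the block and 0.397 paired). It rose in the 4-array fit (log2 difference 1.42, limma adjusted p = 6.72e-05). In that fit 2 genes of this list were higher and 3 lower as deposited, beside 12.8% and 20.5% of all genes. The counts were 1 and 4 with quantile normalization (1064 and 1307 of all 7927 genes), and 2 and 1 with a common median (1646 and 601).

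The ATF6 and XBP1 chaperone list holds targets of other branches of the response to misfolded protein. In the paired fit 2 of 15 were higher, against 3.68% of all genes passing in either direction. In the 4-array fit 12 of 15 were higher as deposited, 10 with quantile normalization and 13 with a common median, with 0 lower in any of these. Over all 7927 genes, 1016, 1064 and 1646 were higher in the same 4-array fits, in that order. DNAJC3, a co-chaperone that inhibits PERK, had signals of 975.8, 748.0 and 569.6 after 8-Br-cAMP, against 267.1, 218.9 and 185.9 in controls (log2 difference 1.75, paired limma adjusted p = 0.0142, and 0.0993 without the block). The chaperone gene CALR was the other (1.22, paired limma adjusted p = 0.0262, lost in 1 of 9 paired fits, and 0.121 without the block). In 2 of these 15 genes the number 1 arrays were at least 2-fold below the others in both groups.

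Of 9 tested mitochondrial synthetases, 0 passed the paired fit. In the 4-array fit 0 were higher and 4 lower as deposited, beside 20.5% of all genes lower, but 2 were lower with quantile normalization and 0 with a common median. IARS2, the isoleucine enzyme of mitochondria, differed by -1.0 (log2, limma adjusted p = 0.322), with -1.95, -0.43 and -0.62 in pairs 1, 2 and 3. Its 4-array difference was -0.52. The phenylalanine enzyme FARS2 differed by -0.56 (log2, limma adjusted p = 0.554). IARS2 and FARS2 were among 3 of the 9 that were lower without overlap between groups, as were 13.6% of all genes. None of the 9 had the number 1 arrays at least 2-fold below the others. Among other cytosolic synthetase genes, FARSA differed by 0.21 and the complex scaffold AIMP1 by 0.08 (log2), and neither passed on 6 arrays with or without the block. In the 4-array fits AIMP1 passed with a common median only, and FARSA in none. Of 7 other folate and glycine genes 0 passed the paired fit, with GCSH at -0.39 and DLD at -0.58 (log2). In the 4-array fit 1 was higher and 1, DLD, lower, beside 12.8% and 20.5% of all genes. The call of DLD was lost with a common median or the replicate block. Of 8 relatives of the regulators TRIB1 alone passed the paired fit, against 3.68% of all genes. It had signals of 1069.7, 1896.1 and 1847.9 after 8-Br-cAMP, against 348.5, 943.6 and 807.1 in controls (log2 difference 1.27, paired limma adjusted p = 0.032, lost in 1 of 9 paired fits, and 0.339 without the block).

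The genes outside the members whose 6 log2 signals followed the mean profile of the 15 synthetases most closely were CYP27B1, ZNF787, PLEKHO2, RRP15 and HLCS, with Pearson's r of 0.992 to 0.997 over 6 arrays that share the gap between sample numbers. Among members, r ran from -0.94 for VLDLR to 0.97 for YARS1, which is itself part of that mean.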

How the data were processed

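Per the series text and the submitters' processing notes, signal intensities on a linear scale were made with GCOS 1.3, 1 per probe set and array, and the deposited table holds 22277 probe sets. The 2% trimmed mean of each column lay between 249.996 and 250.155, so no normalization was added. The 62 array controls were left out. Genes came from GEO's platform annotation (19064 probe sets with 1 symbol, 1043 with several, 2108 not listed), and all symbols match the current RefSeq table where an ID matched (19052). Detection calls were not used.

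Log2 signals of the 13329 probe sets above the 40th percentile of mean log2 signal entered a linear model in limma 3.58.1 under R 4.3.3 (eBayes with trend), two-sided, with Benjamini-Hochberg adjustment over them and a threshold of 0.05. The main fit had no block. Deviations of same-numbered arrays correlated at 0.603, 0.378 and 0.538, all above 0.1. Same-numbered arrays were treated as pairs on that basis, which comes from the data and not the labels. A gap that both number 1 arrays share can by itself raise these correlations, and those between the other arrays whatever their number. Correlations of differently numbered arrays were not compared, so these values cannot show which of the other arrays belong together. Counts of genes use 1 probe set per gene.

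Members and lists were chosen with earlier results of these data known. Array values were given for members passing with or without the block, for the 4 of each role group with the smallest unadjusted p and the 2 with the largest 4-array difference, and for ATF4 and DDIT3. Other lists name what passed with or without the block, or else the 2 with the smallest unadjusted p. Other genes, CEBPG, CHAC1, SHMT2, MTHFD2, EPRS1, TARS1, WARS1 and EIF2AK3 among them, were named after their values were seen. Alternatives changed the normalization, filter, floor, pseudocount, variance model, block, probe set and arrays included, and 3 of the 4-array fits were added after seeing the data.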

Additional observations from a re-analysis of the deposited data

How the results depend on the processing

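Without a block, 0 probe sets were called as deposited, with no filter, without a trend and with robust variances. There were 17 with quantile normalization or a common median, 18 with a filter at the 60th percentile, and 26 with a floor at the 20th percentile or a pseudocount of 16. With the replicate block there were 428, and combined with the block 337 (quantile), 142 (common median), 406 (no filter), 440 (60th percentile), 473 (floor), 521 (pseudocount), 81 (no trend) and 408 (robust). The selection of the series text, 2-fold and an unadjusted p under 0.05, gave 880 (6.6%) with 0 members. Leaving out 1 array gave 0 to 285 probe sets, 0 members in each case, and a member median of -0.28 (without control 1) to 0.51 (without 8-Br-cAMP 1). The cause was not tested. Both number 1 arrays left out gave 4103 probe sets with 12 members, 3690 with 17 (quantile), 3624 with 10 (common median) and 4680 with 14 (replicate block), the last 3 added after seeing the data.

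No member was called in any 6-array or 5-array fit (30 members were tested with the filter at the 60th percentile), so there the replicate block changed no member's call. In the 4-array fit the replicate block lost TARS1 and added CARS1, VARS1 and WARS1, all lower. The other kept probe set of WARS1 differed by 0.043 (log2) in the 4-array fit as deposited. Of the 31 members, 7 kept their sign without each array in turn and 24 did not. The log2 differences of the 24 ran over ATF3 -1.12 to 1.55, DDIT3 -0.21 to 1.59, CEBPB -0.10 to 0.46, CEBPG -0.77 to 0.63, TRIB3 -0.22 to 2.21, PPP1R15A -0.28 to 1.99, CHAC1 -2.52 to 1.44, VLDLR -0.33 to 0.32, ASNS -1.07 to 0.65, PSAT1 -2.06 to 0.072, SHMT2 -0.35 to 0.22, MTHFD2 -0.70 to 1.11, CARS1 -0.92 to 0.51, EPRS1 -0.16 to 0.59, GARS1 -0.60 to 0.74, IARS1 -0.80 to 0.24, KARS1 -0.096 to 0.47, LARS1 -0.29 to 0.034, RARS1 -0.14 to 0.12, SARS1 -0.26 to 0.74, TARS1 -0.88 to 0.34, VARS1 -0.28 to 0.23, WARS1 -0.79 to 0.62 and YARS1 -0.15 to 0.77.

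Signs also turned for small differences, and the cause was not tested. With quantile normalization, with or without the replicate block, they turned to -0.0118 for CEBPB, 0.016 for CEBPG, -0.22 for SHMT2 and -0.034 for EPRS1. With a common median, with or without the replicate block, they turned to 0.22 for CEBPG, 0.16 for VLDLR, 0.049 for ASNS, 0.18 for CARS1, 0.11 for LARS1 and 0.0081 for TARS1. With both number 1 arrays left out, with or without the replicate block, they turned to -0.035 for ATF3, 0.17 for VLDLR, -0.39 for SHMT2, -0.070 for GARS1, -0.079 for KARS1, -0.23 for RARS1, -0.47 for VARS1 and -0.37 for WARS1. With quantile normalization of those 4 arrays they turned to -0.14 for ATF3, -0.045 for CEBPB, 0.10 for VLDLR, -0.65 for SHMT2, -0.021 for EPRS1, -0.33 for GARS1, -0.31 for KARS1, -0.13 for RARS1, -0.062 for SARS1, -0.39 for VARS1, -0.55 for WARS1 and -0.075 for YARS1. In the 4-array fit with a common median they turned to 0.21 for CEBPG, 0.51 for VLDLR, 0.097 for ASNS, 0.11 for PSPH, -0.046 for SHMT2, 0.048 for IARS1, 0.019 for TARS1, -0.13 for VARS1 and -0.023 for WARS1. Other probe sets gave -0.20 for SHMT2, -0.36 for KARS1, -0.33 for VARS1 and -0.094 for WARS1.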
